A study of Arabidopsis thaliana with 4 samples.

Results

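This section describes 67 probe sets whose transcripts were already well detected in Arabidopsis thaliana leaves before treatment with probenazole (PBZ) and stood higher 72 h after it. Members were selected on their deposited signals. A probe set was taken if it read at least 100 on both arrays before PBZ and if its lower signal after PBZ was at least 2.5 times its higher signal before PBZ, and the calreticulin gene CRT1b, which also passed, was left out by name. Of 16319 probe sets, 2789 read at least 100 on both arrays before PBZ. The rule took 68 of these with CRT1b (2.44%), while the same step downwards took 17 (0.61%). These shares were set by the rule and are given as a description. A single gene is annotated for 27 of the 67, several genes for 3 and none for 37. Both limits apply to the same 4 arrays that the values below come from.

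The arrays came from rosette leaves 5 to 8 of plants aged 5 weeks, grown in short days. The first group was taken 72 h after the roots were drenched with 0.5 mM PBZ, which the submitters used to raise the plants' own salicylic acid, and the second group before treatment, with no agent applied. There were 2 biological replicates per group, each on its own Affymetrix array, and the plant accession is not given in the sources used here. No leaves kept untreated for 72 h were among the samples, so the effect of PBZ and that of the passing time cannot be told apart. Median signals were 32.5 and 27.1 on the arrays after PBZ and 19.2 and 27.6 on those before it. The median log2 change over 12239 tested probe sets was 0.37 as deposited, -0.06 after quantile normalization and 0.01 with each array centred on its median. None of 4 mesophyll markers was matched to a probe set with 1 annotated gene. Of 4 genes of photosystem II, which mark green leaf tissue, none passed the test, and their log2 changes were 0.45 for PSBW, -0.03 for LHCB4.1, -0.09 for LHCB4.2 and -0.96 for LHCB4.3. LHCB4.3 read 439.3 and 392.0 after PBZ, against 674.5 and 962.7 before it, with no overlap, and 1 gene of the list was called lower both after quantile normalization and with arrays centred. The guard cell marker FMA and the phloem marker SWEET11 had log2 changes of 0.44 and -0.49, neither past the test, and their part in the results was not tested. In whole leaves, a larger share of cells that make a transcript and more of it per cell cannot be told apart.

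Salicylic acid is a plant hormone of defence against pathogens that live on living tissue. As background, leaves that respond to it make large amounts of secreted antimicrobial proteins. Such proteins enter the endoplasmic reticulum through the Sec61 channel, lose their signal peptide there, are folded and glycosylated, and leave in coated vesicles by way of the Golgi. The response also draws on aromatic amino acid precursors from the plastid, on altered redox metabolism and on proteins at the plasma membrane.

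Among all members the ratio between the nearest arrays of the groups ranged from 2.52 to 79.3, with a median of 3.48. It was 4 or more for 23 members and 3 or less for 19. Most members thus lay not far above the limit. The 2 highest ratios belonged to probe sets with no gene listed. 262832_s_at read 9133.2 and 10864.4 after PBZ, against 115.2 and 111.7 before it. 262119_s_at read 5000.2 and 4833.5 after PBZ, against 129.1 and 130.4 before it. Both were close to the lower signal limit before PBZ, and their signals on the arrays before PBZ were nearly equal (ratios of replicate 2 to replicate 1 of 0.97 and 1.01). The remaining 35 members with no gene listed had ratios from 2.52 to 8.78. The 3 members with several genes had ratios from 2.87 to 6.83. All of the named members had ratios of at most 5.37, so the largest changes among transcripts of this kind are in probe sets that cannot be named here.

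**Figure D1:**
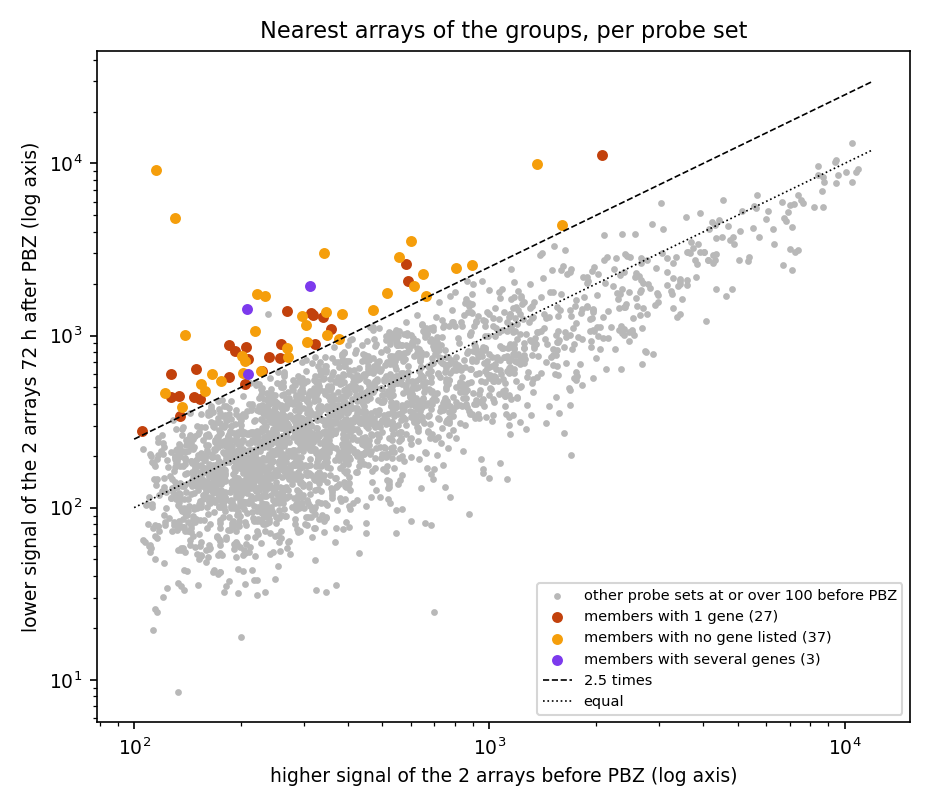
Each point is 1 of the 2789 probe sets at or over 100 on both arrays before PBZ, with its higher signal before PBZ on the horizontal axis and its lower signal 72 h after PBZ on the vertical axis (both log axes). Members lie above the dashed line of 2.5 times, most of them close to it, and 2 members with no gene listed stand apart at ratios of 79.3 and 37.1; the grey point above the line is CRT1b.

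The median log2 change over the 67 members was 2.21, against 0.21 over all 2789 probe sets of that brightness, a gap that the rule fixes. For the 27 named members it was 2.19, with single values from 1.55 to 3.45. They fell into 6 functional groups, with 3 genes for which no role is given here. By the compartment in which each protein is known to act, 3 belong to the Golgi, 2 to the endoplasmic reticulum, 2 to the plasma membrane, 2 to the plastid, 4 to membranes not assigned further, 2 to the cytosol and 1 each to the mitochondrion, the vacuole and the lipid droplet, and 9 were not assigned.

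Genes of the secretory pathway and of glycosylation made up 6 of the 27. At the entry to the endoplasmic reticulum stood AT2G34250, which encodes an alpha subunit of the Sec61 channel. It read 1354.7 and 1448.9 after PBZ, against 207.9 and 314.5 before it. AT1G52600, a catalytic subunit of the signal peptidase that cuts the signal peptide from the entering chain, read 853.3 and 1167.3 after PBZ and 150.9 and 206.6 before it. These were the largest ratios of the group, 4.31 and 4.13, and in both genes the second array of each group was the higher.

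Sugars for glycosylation were represented by PMM, phosphomannomutase, which makes the mannose 1-phosphate needed for GDP-mannose and so for N-glycans and ascorbate. PMM read 1276.4 and 1320.4 after PBZ, against 239.9 and 339.6 before it. EPC1, a glycosyltransferase of family 64 that acts in the Golgi, read 652.5 and 623.9 after PBZ and 207.3 and 229.1 before it. Its replicates were close in both groups, and its log2 change of 1.55 was the smallest of the named members.

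Vesicle traffic was represented by 2 genes near the limits of the rule. AT1G30630, the epsilon subunit of the coatomer that coats vesicles between Golgi and endoplasmic reticulum, read 540.7 and 519.7 after PBZ, against 123.0 and 205.5 before it. AT2G20930, a SNARE-like protein related to subunits of a vesicle tethering complex, read 277.0 and 332.1 after PBZ and 104.9 and 100.0 before it. AT2G20930 was the dimmest of the named members after PBZ, and its second array before PBZ stood exactly at the signal limit.

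**Figure D2:**
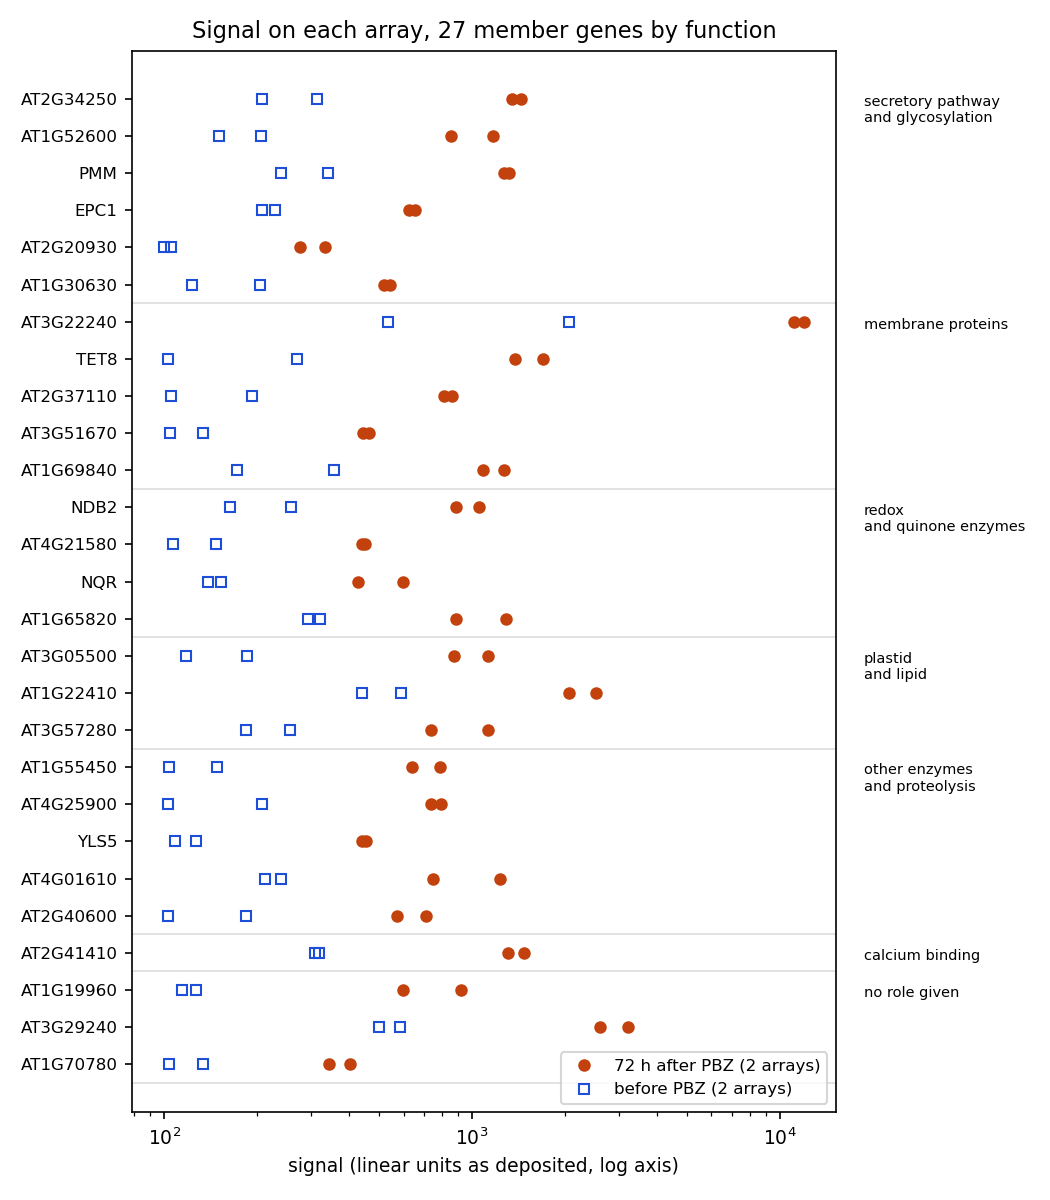
Signal of the 27 members with 1 gene on each array (log axis), grouped by function, with filled circles for the 2 arrays 72 h after PBZ and open squares for the 2 arrays before it. The groups do not overlap for any gene, as the rule requires, and AT3G22240 is the brightest after PBZ, at 11123.5 and 11966.6.

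Genes of the same steps that the rule did not take were examined across the whole table (limma, 2-sided, Benjamini-Hochberg adjustment over 12239 probe sets), where 5.34% of probe sets rose and 0.245% fell. The number of falls depended on the scaling. As deposited 653 rose and 30 fell, after quantile normalization 546 and 278, and with each array centred on its median 604 and 179. Of 15 other genes for entry into the endoplasmic reticulum, 7 rose and none fell. Their median log2 change was 1.46, against 0.37 over all tested probe sets. The same number, 7, rose after quantile normalization and with each array centred on its median. The list was written after the members were known, and its count is a description.

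The largest of these rises was that of AT3G60540, a beta subunit of the Sec61 channel, which read 684.3 and 765.5 after PBZ, against 11.7 and 24.7 before it (log2 change 5.41 ± 0.57 SE, limma adjusted p = 1.29e-07). AT1G29310, a second alpha subunit, read 380.7 and 342.4 after PBZ and 40.5 and 44.9 before it (log2 change 3.08 ± 0.55, adjusted p = 0.000403). AT3G48570, a gamma subunit, read 241.9 and 458.4 after PBZ, against 63.5 and 89.9 before it (log2 change 2.14 ± 0.56, adjusted p = 0.0183). The call of AT3G48570 was lost when any array but the second before PBZ was dropped (adjusted p from 0.0937 to 0.491). These 3 genes stayed out of the rule because they read under 100 before PBZ. Another alpha subunit gene, AT1G78720, was dim on all arrays, at 19.1 and 31.1 after PBZ and 10.5 and 28.8 before it, and did not pass (limma adjusted p = 0.788).

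In the signal peptidase, AT3G05230 of the SPC22 type read 290.3 and 239.1 after PBZ, against 16.7 and 43.8 before it (3.28 ± 0.59 on the log2 scale, limma adjusted p = 0.000365). AT3G15710, a second SEC11-type subunit, read 459.7 and 629.1 after PBZ and 74.7 and 223.6 before it (log2 change 2.06 ± 0.57, adjusted p = 0.026). ATERDJ2B, a SEC63-type partner of the channel, read 212.4 and 85.3 after PBZ, against 25.9 and 23.6 before it (2.44 ± 0.58, adjusted p = 0.00751), while its paralogue ATERDJ2A was at 0.53 ± 0.57 (adjusted p = 0.707). AT2G16595, an alpha subunit of the translocon-associated complex, read 53.3 and 71.3 after PBZ and 9.6 and 19.6 before it (2.17 ± 0.61, adjusted p = 0.0278). This call was lost with the replicate block (adjusted p = 0.0706) and with dim probe sets kept in the limma test (adjusted p = 0.143). With dim probe sets kept, 5 genes of the list rose. The count of 7 depended on the arrays used. It fell to 3 when the first array before PBZ was dropped, to 3 when the first array after PBZ was dropped and to 4 when the second array after PBZ was dropped. A variance estimate that ignored signal level left 2, AT3G60540 and AT1G29310, and these passed under every alternative run.

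**Figure D3:**
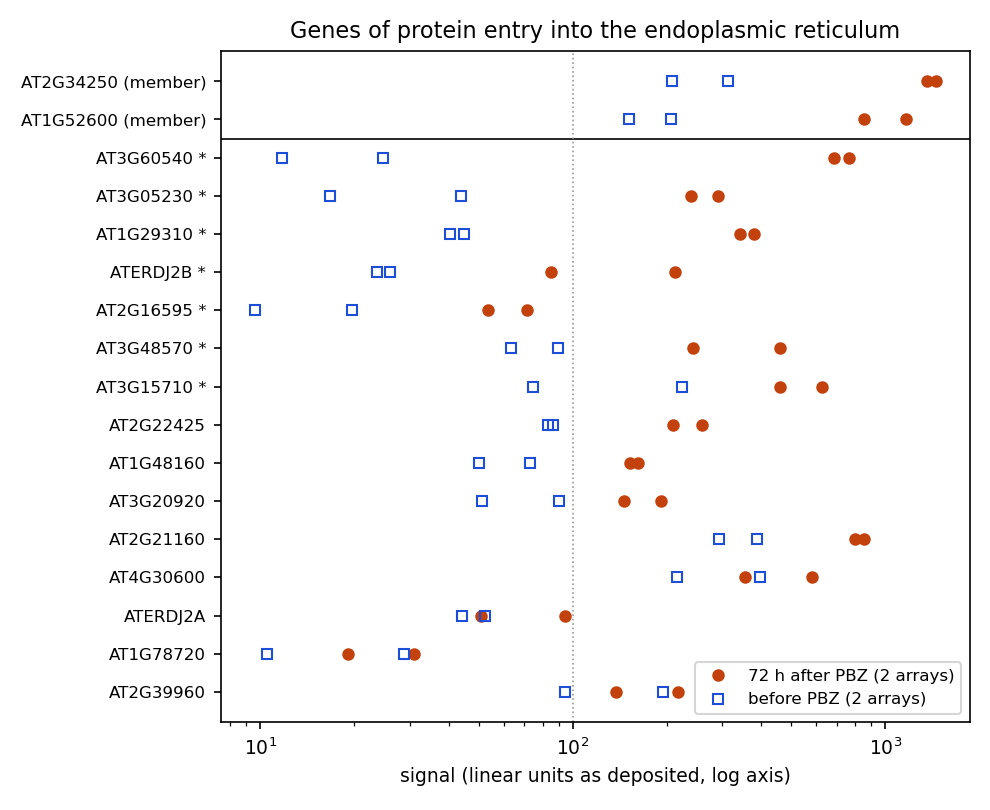
Signal on each array (log axis) of 2 members and 15 other genes of entry into the endoplasmic reticulum, with filled circles for the 2 arrays 72 h after PBZ and open squares for the 2 before it. An asterisk marks the 7 other genes that passed the limma test, all of which had at least 1 array before PBZ below the dotted line at the signal limit of 100.

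For later steps of secretion, 12 further genes of coatomer, the COPII coat and tethering were tested. None passed (limma), where 5.34% of all probe sets rose. At that share a list of 12 may hold no call, so the count draws no contrast with earlier steps. Of the 12, 4 had an unadjusted p under 0.05. The share of all probe sets under that unadjusted p is not given here, so the 4 are a description. AT1G51160, a tethering subunit, read 279.8 and 284.9 after PBZ, against 81.4 and 117.2 before it (log2 change 1.53 ± 0.55, adjusted p = 0.111). AT1G80500, another SNARE-like tethering subunit, read 311.2 and 447.3 after PBZ and 116.2 and 174.2 before it (1.39 ± 0.54, adjusted p = 0.154). AT1G60970, a zeta subunit of coatomer, was dim, at 44.3 and 29.0 after PBZ and 17.7 and 5.6 before it (1.85 ± 0.71, adjusted p = 0.146). The median log2 change of the 12 was 0.87, against 0.37 over all tested probe sets. After quantile normalization these medians were 0.32 and -0.06. Of the 6 tested genes of a second list for vesicle transport none passed and none had an unadjusted p under 0.05. In glycosylation, GPT, the enzyme that starts the dolichol-linked sugar chain, read 178.0 and 97.0 after PBZ, against 22.3 and 41.4 before it (2.11 ± 0.58, limma adjusted p = 0.0241). This call was lost with the replicate block (adjusted p = 0.0647) and when any array but the second before PBZ was dropped (adjusted p from 0.0516 to 0.443). None of 3 genes of GDP-mannose and ascorbate synthesis passed, nor did any at an unadjusted p under 0.05, and their median log2 change was 0.58. In folding, 1 gene outside the rule was tested, the co-chaperone ATERDJ3B. It read 4090.5 and 2488.1 after PBZ, against 94.9 and 207.3 before it (4.51 ± 0.50, limma adjusted p = 2.78e-07), so ATERDJ3B missed only the signal limit.

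Membrane proteins made up 5 of the named members and held the 2 largest ratios among them. AT3G22240, a small cysteine-rich protein of the type of PCC1, a gene known for its response to pathogens, read 11123.5 and 11966.6 after PBZ. It read 535.6 and 2070.1 before PBZ. The arrays after PBZ were thus close to each other, while those before it differed 3.87-fold, the widest replicate gap of the named members. Its log2 change was 3.45, and its ratio between the nearest arrays was 5.37.

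TET8, a tetraspanin found on extracellular vesicles of Arabidopsis, read 1386.1 and 1708.0 after PBZ, against 103.2 and 269.8 before it. Tetraspanins are small proteins that cross the membrane and organise others in it. Of 9 other tetraspanins tested, none passed (limma), where 5.34% of all probe sets rose, and none had an unadjusted p under 0.05. Their log2 changes ranged from -1.03 to 1.62, with a median of -0.08. Dim genes stood at both ends of that range. TET14 read 1.7 and 14.8 after PBZ and 7.2 and 14.5 before it, and TET9 16.1 and 18.4 against 1.5 and 20.9. The count does not set TET8 apart from its relatives. TET8 itself had a log2 change of 3.20, which the rule chose it for.

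The other 3 membrane proteins had ratios between 3.04 and 4.21. AT2G37110, of the PLAC8 family, read 863.9 and 810.0 after PBZ and 105.5 and 192.5 before it. AT1G69840, a band 7 protein of the hypersensitive induced reaction family, whose members sit at the plasma membrane, read 1268.2 and 1088.5 after PBZ, against 172.2 and 357.8 before it. AT3G51670, a patellin, that is a SEC14 domain protein that binds membrane lipids, read 463.4 and 442.6 after PBZ and 104.6 and 133.7 before it. For AT2G37110 and AT1G69840 the arrays before PBZ differed by 1.82-fold and 2.08-fold, and those after it by less. None of 3 other patellins tested passed over all probe sets (limma). Of these, 1 had an unadjusted p under 0.05, for which the share over all probe sets is not given. That gene, AT1G30690, read 30.2 and 18.4 after PBZ, against 82.0 and 56.0 before it. It stood at a log2 change of -1.52 ± 0.58 (limma adjusted p = 0.137), and passed after quantile normalization (adjusted p = 0.0175) and with arrays centred (adjusted p = 0.0227).

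Redox and quinone enzymes made up 4 of the 27, with the lowest median log2 change of the groups of more than 1 gene, 1.81. NDB2, an external NAD(P)H dehydrogenase of the mitochondrial inner membrane that passes electrons to ubiquinone without pumping protons, read 890.1 and 1055.2 after PBZ, against 163.9 and 258.3 before it. NQR, an NADPH quinone oxidoreductase, read 427.3 and 597.5 after PBZ and 138.5 and 153.1 before it. Both act on quinones, in different compartments. AT1G65820, annotated as a microsomal glutathione S-transferase, read 888.2 and 1287.4 after PBZ, against 292.6 and 322.2 before it. AT4G21580, a zinc-binding oxidoreductase, read 448.5 and 440.3 after PBZ and 106.9 and 147.6 before it. Ratios in this group lay between 2.76 and 3.45, so all 4 were near the limit. Of 2 other tested dehydrogenases of the NDB type none passed (limma) and none had an unadjusted p under 0.05. The larger change of the pair was that of NDB3, which was dim, at 25.3 and 19.3 after PBZ and 8.0 and 6.2 before it (1.65 ± 0.82, adjusted p = 0.305). A wider list of 22 peroxidases, thioredoxins and genes of glutathione was matched by name text and does not hold every gene of these families. None of the 22 rose and GSTU20 fell, against 5.34% and 0.245% of all probe sets. It read 133.8 and 83.3 after PBZ, against 601.0 and 320.9 before it (log2 difference -2.06 ± 0.56, limma adjusted p = 0.0223), a call lost when any array but the second before PBZ was dropped (adjusted p from 0.132 to 0.466).

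Plastid and lipid proteins made up 3 members. AT3G05500, of the small rubber particle protein type that coats lipid droplets, read 875.2 and 1128.3 after PBZ, against 117.8 and 185.3 before it. Its ratio of 4.72 followed those of AT3G22240 and TET8 among the named members. Neither of 2 other small rubber particle proteins passed the test or had an unadjusted p under 0.05, and their log2 changes were -0.46 and 0.02. AT1G22410, a 3-deoxy-D-arabino-heptulosonate 7-phosphate synthase, the first enzyme of the shikimate pathway that leads to chorismate, read 2540.3 and 2067.9 after PBZ and 439.7 and 589.2 before it. Chorismate is the precursor of salicylic acid and of the aromatic amino acids. Other genes of that pathway were not analysed here. AT3G57280, known as FAX1, which exports fatty acids across the inner envelope of the plastid, read 737.4 and 1127.5 after PBZ, against 183.9 and 256.8 before it. The 3 other FAX genes tested had log2 changes from 0.64 to 1.00, and none passed or had an unadjusted p under 0.05.

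Other enzymes made up 5 members. YLS5 was named for its expression in yellowing leaves and encodes a protein of the DJ-1 family. The submitters chose these leaves for their yellowing, and any part of yellowing in the change of YLS5, or of any other gene here, was not tested. YLS5 read 453.1 and 440.3 after PBZ, against 108.2 and 126.7 before it. AT4G01610, a cathepsin B-like protease of the vacuole, read 748.7 and 1237.2 after PBZ and 239.9 and 213.0 before it. YLS5 had close replicates in both groups, whereas the arrays after PBZ differed 1.65-fold for the protease, the widest gap of the named members in that group. Of 2 other cathepsin B genes none passed (limma) or had an unadjusted p under 0.05, at log2 changes of 0.63 and 1.06. The 1 other DJ-1 gene tested was at 0.03 and, after quantile normalization, at -0.48.

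AT1G55450, annotated as a methyltransferase, read 637.3 and 788.4 after PBZ, against 103.8 and 148.9 before it. AT4G25900, a galactose mutarotase-like protein, read 734.5 and 792.9 after PBZ and 102.7 and 208.7 before it. AT2G40600, a protein with a macro domain, a fold that binds ADP-ribose, read 572.3 and 711.0 after PBZ, against 103.2 and 184.5 before it. All 3 stood just above the signal limit on the first array before PBZ.

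Calcium binding was represented by AT2G41410, an EF-hand protein of the calmodulin-like type. It read 1311.1 and 1477.7 after PBZ, against 309.7 and 319.7 before it, with replicates within 1.13-fold in both groups. Of 6 other tested genes of a list for calcium binding and calcium signalling none passed (limma) or had an unadjusted p under 0.05. Their median log2 change was 0.42. The list was matched by name text, and not every gene in it, such as AT4G35987, need bind calcium.

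For 3 members no role is given. AT3G29240 read 3225.1 and 2609.0 after PBZ and 497.6 and 582.8 before it. AT1G19960 read 596.8 and 922.1 after PBZ, against 113.9 and 127.4 before it. AT1G70780 read 403.0 and 342.7 after PBZ and 103.5 and 134.2 before it. AT3G29240 was the second brightest named member after PBZ, behind AT3G22240.

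Before replicate 2 was the higher of its pair for 57 of 67 members (85.1%), with a median ratio of 1.38 to before replicate 1. Over all 2789 probe sets of that brightness it was higher for 81.7%, with a median ratio of 1.43, so the members followed the arrays as a whole. After replicate 2 was the higher for 35 of 67 members, with a median ratio of 1.03. The replicates were more than 2-fold apart for 4 members after PBZ (5.97%, against 13.4% of all 2789) and for 11 before it (16.4%, against 16.2% of all 2789). The rule used the lower signal after PBZ and the higher one before it, and so tends to leave out members with replicates far apart. These shares are therefore a description and no measure of replicate quality. Of the named members, 4 were that far apart before PBZ, namely AT3G22240, TET8, AT1G69840 and AT4G25900, and none after it.

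**Figure D4:**
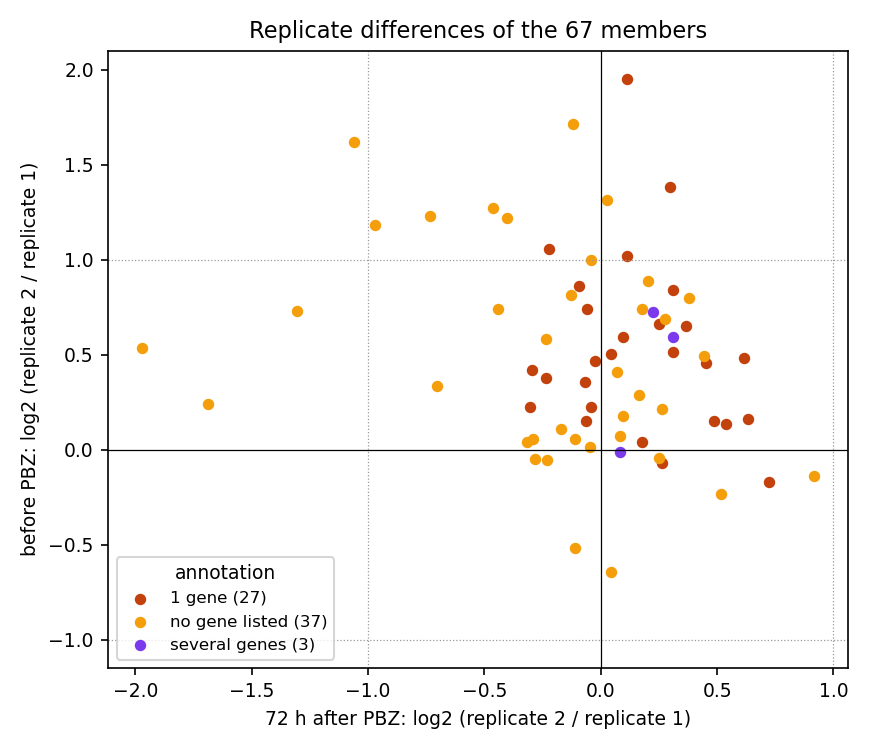
Each point is a member, with the log2 ratio of replicate 2 to replicate 1 after PBZ on the horizontal axis and before PBZ on the vertical axis; dotted lines mark 2-fold. Most points lie above the horizontal line, as 57 of 67 were higher on before replicate 2, and the 4 members beyond 2-fold after PBZ have no gene listed.

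Which probe sets pass the rule depended on how the arrays were scaled to each other. After quantile normalization 54 passed, of which 36 were among the 67, and with each array centred on its median 55 passed, of which 41 were among the 67. The median log2 change of the 67 was 1.73 and 1.84 under these scalings. All 31 that no longer passed after quantile normalization fell short of the ratio, and 1 of them, AT2G20930, was also under the signal limit. A total of 15 named members passed under both scalings. These were 3 of 6 in the secretory group (AT2G34250, AT1G52600 and PMM), 3 of 5 membrane proteins (AT3G22240, TET8 and AT2G37110) and NDB2 alone of the 4 redox enzymes. The others were AT3G05500, AT1G22410, AT1G55450, AT4G25900, AT2G40600, AT2G41410, AT3G29240 and AT1G19960. The 12 that did not pass under both included both genes of vesicle traffic, EPC1, YLS5, NQR and the protease AT4G01610.

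**Figure D5:**
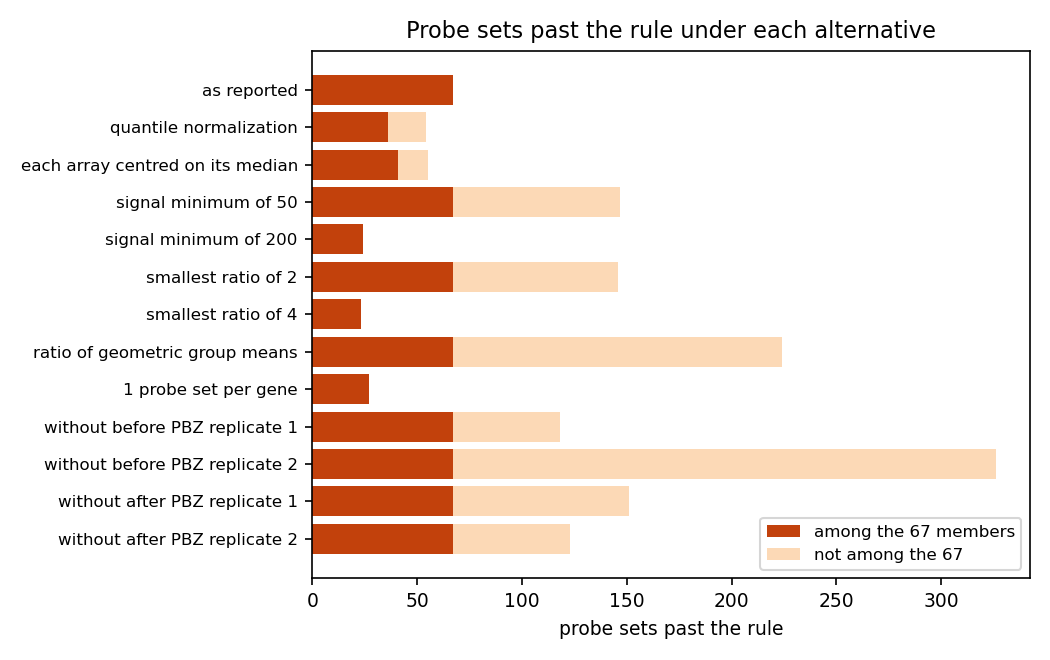
Number of probe sets past the rule as reported and under each alternative, with the part that is among the 67 members in the darker colour. Looser limits kept all 67 and added others, while the quantile and centred scalings kept 36 and 41 of the 67 and added 18 and 14.

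The limits cut through a continuous range. A further 79 probe sets of the same brightness had ratios from 2 to just under 2.5, and 80 with sufficient ratio read between 50 and 100 on their lower array before PBZ. Just inside the ratio limit were AT1G30630, AT1G70780 and AT2G20930, at 2.53, 2.55 and 2.64. Just outside it were AT1G18210, AT2G32520 and AT1G09330, whose lower signals after PBZ were 515.4, 528.8 and 353.9, against higher signals before PBZ of 206.2, 212.5 and 143.3. Just inside the signal limit were AT2G20930, AT4G25900 and TET8, with lower signals before PBZ of 100.0, 102.7 and 103.2. Just outside it were AT2G39210, AT2G03510 and AT2G40765, at 99.7, 98.0 and 97.6.

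Of the 27 named members, 8 lay on chromosome 1, 8 on chromosome 2, 7 on chromosome 3, 4 on chromosome 4 and 0 on chromosome 5. Of all probe sets with 1 gene and at least 100 on both arrays before PBZ, 416, 250, 336, 217 and 8 lay on these chromosomes in that order. No member gene was next to another in the order of protein-coding genes of the TAIR10.1 reference. Few probe sets with 1 annotated gene were assigned to chromosome 5. Of 20 directly neighbouring genes that were tested, 2 rose (limma), against 5.34% of all probe sets, and none fell. AT3G51660, next to the patellin gene AT3G51670, read 145.6 and 204.5 after PBZ, against 11.5 and 19.6 before it (log2 change 3.52 ± 0.57, adjusted p = 9.98e-05). AT1G70770, next to AT1G70780, read 543.1 and 393.8 after PBZ and 73.1 and 164.3 before it (log2 change 2.08 ± 0.56, adjusted p = 0.0214), and this call was lost when any array but the second before PBZ was dropped (adjusted p from 0.17 to 0.416). The 18 others did not pass, and the median of the 20 was 0.62.

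Lists with no named member are given beside the 5.34% of all probe sets that rose. Of 23 tested UDP-glycosyltransferases 2 rose, UGT73D1 and UGT87A2, at log2 changes of 5.08 ± 0.79 and 2.42 ± 0.56 (limma adjusted p = 6.31e-05 and 0.00555). UGT73D1 read 202.1 and 57.0 after PBZ, against 1.3 and 7.7 before it, so the size of its change rests on very low signals. UGT87A2, at 905.2 and 470.5 after PBZ and 84.8 and 175.3 before it, missed the rule by its first array before PBZ. Both calls were lost when the first array after PBZ was dropped (adjusted p = 0.0925 and 0.357), and that of UGT87A2 also when the first before PBZ was (adjusted p = 0.101). Of 14 tested cytochromes P450 CYP71B23 and CYP71B24 rose, and of 10 genes of autophagy and vacuolar proteolysis ATG8E and APG8A rose. APG8A, an autophagy protein, read 386.2 and 414.4 after PBZ, against 64.9 and 147.0 before it. Its call was lost with the replicate block (limma adjusted p = 0.0513) and with no intensity trend (limma adjusted p = 0.195). Of 24 genes of ubiquitin and the proteasome PUB24 rose. Without the first array before PBZ, or without the first after it, the calls of CYP71B24, ATG8E, APG8A and PUB24 were lost, while that of CYP71B23 held under every alternative run. No gene passed among 35 of the cell wall, 7 transporters, 4 of photosynthesis and 1 of amino acid metabolism (limma), of which 4, 1, 0 and 0 had an unadjusted p under 0.05 in that order. The share of all probe sets under that unadjusted p is not given, so these counts are a description. After quantile normalization 5 genes of the cell wall and 1 of photosynthesis were called lower, and with arrays centred 3 and 1. The list for heat shock proteins matched BRK1 and CCS by name text alone, of which BRK1 is no chaperone, and neither passed or had an unadjusted p under 0.05.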

How the data were processed

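The authors deposited 1 intensity per probe set and array, on a linear scale, from arrays of 1 colour. GCOS made these values, per the submitters' processing notes. Neither its version nor its scaling target was stated in the sources used here, so between-array scaling is unknown. Leaving out 64 control rows left 16319 probe sets. The platform's annotation, which can be old, gave 1 gene for 9685, several for 356 and none for 6278, and symbols were updated through RefSeq's TAIR10.1 table. A locus was found for 9647 of the first kind, with 69 on chromosome 5. Roles are background knowledge.

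The rule was applied to the signals as deposited. Log2 changes are differences of group means on the log2 scale, for which 0.1 replaced 2 signals of 0. For genes outside the rule, limma 3.58.1 in R 4.3.3 (lmFit, eBayes with an intensity trend, 2-sided, Benjamini-Hochberg at 0.05) was run on the 12239 probe sets left after the lowest 0.25 by mean log2 was removed. It had 2 residual and 27.2 prior degrees of freedom. Lists used 1 probe set per gene, the brightest. Counts of list genes at an unadjusted p under 0.05 are given without the share over all probe sets, and are a description. The fit was tested on simulated data, where it missed most of the smaller changes, so a gene that did not pass may still differ. The number of arrays limits the precision.

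Members, functional groups and lists were chosen with earlier results of these data known. Of 18 pathway lists written from product words, 14 had a tested gene, since the annotation holds few such words, and 13 lists of relatives and pathway partners were added once the members were known, of which 10 had a tested gene. Values on every array are given for each member with 1 gene, and for the list genes singled out beside a member, which passed the test or had 1 of the 3 smallest p in their list. Other list genes are given as counts, log2 changes or ranges. Alternatives were quantile normalization, median centring, other limits, other filters, a pseudocount of 1.3, a replicate block, no intensity trend and each array left out. Members carry no test. No sequence is shown, and promoters and proteins were not analysed here.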

Additional observations from a re-analysis of the deposited data

How the results depend on the processing

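With the signal limit at 50 or 200, 147 and 24 probe sets passed the rule. With a smallest ratio of 2 or 4, 146 and 23 passed, at median log2 changes of 1.74 and 3.17, and with the ratio of geometric means 224 passed, at a median of 1.61. With 1 probe set per gene 27 passed. With each array left out in turn the count lay between 118 and 326, highest without before replicate 2, and the median between 1.80 and 2.03. In the limma test the count of rises lay between 217 and 1136 with an array left out and was 157 with no intensity trend. The count of falls was 278 after quantile normalization, 179 with arrays centred, 15 with no dim filter, 48 with the dimmest 0.5 of probe sets left out, 8 with no trend, and 12 to 38 with an array left out. Among list genes outside the rule, 16 rose and 1 fell, against 5 and 0 with no trend, and between 5 and 22 rises and 0 and 2 falls with an array left out. Falls among them numbered 10 after quantile normalization and 7 with arrays centred. Rises of genes of entry into the endoplasmic reticulum numbered 2 with no trend and 3 to 7 with an array left out. With the replicate number as a block 543 probe sets rose and 29 fell, 12 list genes rose, and 6 genes of entry into the endoplasmic reticulum rose. Same-numbered arrays did not deviate together (r = -0.064 across probe sets). With 1 such value from 4 arrays, this cannot decide whether the numbers pair the samples. The changed counts with fewer arrays follow in part from fewer samples, and otherwise the cause was not tested. Promoter windows and protein features were not run, as no sequences were analysed.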
